A study of Mus musculus with 50 samples.

Results

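H3K27ac peaks were compared between Ezh2 Y726D and Ezh1/2 dKO mouse embryonic stem cells (ESCs), using every peak of the 2 deposited ChIP-seq lists on chromosomes 1 to 19, X and Y. The lists held 40829 peaks in Ezh2 Y726D and 17618 peaks in Ezh1/2 dKO, together 58447 of the 125115 peaks in the 4 H3K27ac lists of the series. A peak was called shared when it overlapped a peak of the other line by at least 1 bp, and specific to its line otherwise. Both lines derive from E14TG2a ESCs. In Ezh1/2 dKO cells, Ezh1 and Ezh2 had been disrupted by CRISPR/Cas9 with a pair of guides per gene, designed to remove the gene. Ezh2 Y726D cells lack Ezh1 in the same way and carry a point mutation in the SET domain of the remaining Ezh2, introduced with a single-stranded donor oligonucleotide. Both lines therefore lack Ezh1, and each is a clonal line. Ezh2 R685C, made like Ezh2 Y726D in Ezh1 KO cells, and Ezh2 KO, which keeps Ezh1, are used below for reference, and each line has 1 H3K27ac library.

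PRC2 methylates lysine 27 of histone H3 through its catalytic subunits EZH1 and EZH2, and the trimethylated form, H3K27me3, marks repressed developmental genes in ESCs. The same lysine can carry an acetyl group, which CBP and p300 add at active promoters and enhancers, so that a given lysine cannot carry both marks. SUZ12 is a core PRC2 subunit, and its binding shows where the complex sits. The comparison asks how the acetylated sites differ when EZH2 is present without normal catalysis and when both enzymes are absent.

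Sequences of 6 sites follow as single examples, which do not stand for their classes. They are the strongest shared site of Ezh2 Y726D and the strongest site of each line-specific class, at promoters (a transcription start site, TSS, within 5 kb) and distal to them. For shared promoters the site ranked 2 is given, in place of the one at Hspa9. Each is 200 bases around the summit on the + strand of mm9, 5′ to 3′, with CG dinucleotides in capitals.
Shared promoter peak in Pole4, chr6:82653341-82653540: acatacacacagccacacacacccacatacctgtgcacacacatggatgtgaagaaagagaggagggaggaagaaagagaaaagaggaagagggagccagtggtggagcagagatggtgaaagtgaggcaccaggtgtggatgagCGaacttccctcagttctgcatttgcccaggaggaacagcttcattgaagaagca
Shared distal peak, Fam53a nearest, chr5:33877710-33877909: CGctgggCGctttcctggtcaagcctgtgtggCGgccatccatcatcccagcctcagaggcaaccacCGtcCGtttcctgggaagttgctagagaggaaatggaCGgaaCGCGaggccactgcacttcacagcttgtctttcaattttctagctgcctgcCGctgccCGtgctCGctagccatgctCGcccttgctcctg
Ezh2 Y726D-only promoter peak, Mfsd5 nearest, chr15:102102208-102102407: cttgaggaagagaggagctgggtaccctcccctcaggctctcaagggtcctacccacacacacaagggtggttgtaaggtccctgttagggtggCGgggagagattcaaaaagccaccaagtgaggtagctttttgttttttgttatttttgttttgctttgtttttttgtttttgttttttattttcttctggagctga
Ezh2 Y726D-only distal peak, Gm17379 nearest, chrX:166442217-166442416: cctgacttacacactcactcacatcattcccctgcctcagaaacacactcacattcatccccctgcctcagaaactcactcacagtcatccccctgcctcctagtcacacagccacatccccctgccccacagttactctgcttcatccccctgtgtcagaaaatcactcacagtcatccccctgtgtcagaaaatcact
Ezh1/2 dKO-only promoter peak at Bcl6, chr16:23988790-23988989: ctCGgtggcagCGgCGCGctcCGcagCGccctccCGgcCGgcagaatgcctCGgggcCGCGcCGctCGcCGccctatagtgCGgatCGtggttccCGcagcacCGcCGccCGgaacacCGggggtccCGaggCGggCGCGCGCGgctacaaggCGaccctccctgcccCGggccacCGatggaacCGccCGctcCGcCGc
Ezh1/2 dKO-only distal peak in Amph, chr13:19229358-19229557: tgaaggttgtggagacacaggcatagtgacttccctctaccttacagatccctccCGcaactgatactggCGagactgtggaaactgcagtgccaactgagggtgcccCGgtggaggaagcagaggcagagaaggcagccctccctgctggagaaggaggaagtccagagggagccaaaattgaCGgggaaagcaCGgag
CG dinucleotides numbered 34 in the Bcl6 sequence and 12 in the one nearest Fam53a, against 1 in Pole4, 1 near Mfsd5 and 0 near Gm17379. The Amph sequence held 5. Class medians differed from these examples. They were 10 for shared and 5 for Ezh2 Y726D-only promoter peaks of Ezh2 Y726D, 7 for Ezh1/2 dKO-only promoter peaks and 2 for distal peaks.

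The libraries allowed a direct comparison of reads. Deposited peaks give the fold enrichment at the summit over local background and its -log10 p, and both together fix the reads at a summit. At peaks on the genome-wide background (33.8% of the Ezh2 Y726D list and 36.4% of the Ezh1/2 dKO list), the same background of 2.85 reads and a whole number of reads, within 0.1 read, came out for 100% of peaks in each list, with 23 reads at the weakest summit. On the settings of the methods this corresponds to 31.6 M reads in each line, and Ezh2 Y726D had 0.132% more than Ezh1/2 dKO. This depth is inferred from the values and was not read from alignments. With 1 library per line there is no replicate check of any difference between lists, and no test was made. The efficiency of the 2 immunoprecipitations cannot be told apart from the genotype, and the Drosophila spike-in chromatin of the study does not enter the lists. Confidence intervals of shares (CI, Wilson, 95%) cover counting error only. ESC identity was checked on mRNA. All 8 ESC markers passed the expression filter, a mean over the libraries of all 4 lines with mRNA. Their sum lay between 11355 and 12522 normalized counts in the 4 libraries of both lines, with Tfcp2l1 alone between 3889 and 4789. Of the 8, 1 was called lower in Ezh2 Y726D: Dppa3, at 21.4 and 20.1 against 283 and 414 in Ezh1/2 dKO. Of 25 markers of other lineages, 12 did not pass the filter, while the other 13 summed to between 1083 and 2174. Chromosome 12 stood apart in Ezh2 Y726D and is described with its values below.

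Ezh2 Y726D carried more and wider acetylated sites. The list covered 34.97 Mb (1.317% of the genome) in Ezh2 Y726D and 11.52 Mb (0.434%) in Ezh1/2 dKO, with a median width of 616 bp and 517 bp. Peaks wider than 2 kb numbered 2821 (6.91%) and 381 (2.16%). The median -log10 p was 15.2 and 13.6, and 12386 Ezh2 Y726D peaks (30.3%) but 3491 Ezh1/2 dKO peaks (19.8%) reached a -log10 p of 20. The widest Ezh2 Y726D peak, 13203 bp, lay in an intron of Elovl6, a fatty acid elongase gene, where the strongest overlapping Ezh1/2 dKO peak was 591 bp wide. Next in width came peaks of 12965 bp at Myo10, an unconventional myosin gene, and 12055 bp at Llgl2, a cell polarity gene, with overlapping Ezh1/2 dKO peaks of 1772 and 3355 bp. The widest Ezh1/2 dKO peak, 7105 bp near Hs6st1, a heparan sulfate sulfotransferase gene, overlapped an Ezh2 Y726D peak of 7770 bp.

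Most Ezh1/2 dKO sites were acetylated in Ezh2 Y726D too, while most Ezh2 Y726D sites had no Ezh1/2 dKO peak. Of the Ezh1/2 dKO peaks, 16018 (90.9%, CI 90.5 to 91.3) were shared and 1600 were not. Of the Ezh2 Y726D peaks, 13599 (33.3%, CI 32.9 to 33.8) were shared and 27230 were not. Counted in bases, Ezh2 Y726D peaks held 91.0% of the Ezh1/2 dKO peaks, and the reverse share was 30.0%. Shared Ezh1/2 dKO peaks lay wholly inside an Ezh2 Y726D peak in 76.5% of cases, against 4.32% for the reverse. A single Ezh2 Y726D peak held at least 2 Ezh1/2 dKO peaks at 2060 sites (15.1% of its shared peaks), and at most 9. An Ezh1/2 dKO peak lay within 1 kb of 17.98% of Ezh2 Y726D-only peaks, and an Ezh2 Y726D peak lay within 1 kb of 33.3% of Ezh1/2 dKO-only peaks.

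Sharing rose with strength in both lists. With each list cut into 5 classes of equal size by -log10 p, the shared percentage of Ezh2 Y726D peaks ran from 7.25% in the weakest class through 11.1%, 20.3% and 43.0% to 84.98% in the strongest. For Ezh1/2 dKO it ran from 83.4% through 85.6%, 91.4% and 95.4% to 98.8%. The strongest Ezh2 Y726D class still held 1226 peaks with no Ezh1/2 dKO peak, and the strongest Ezh1/2 dKO class 42 peaks with no Ezh2 Y726D peak. Among line-specific peaks, 3238 (11.9%, CI 11.5 to 12.3) of Ezh2 Y726D and 41 (2.56%, CI 1.89 to 3.46) of Ezh1/2 dKO reached a -log10 p of 20. Every listed peak had a p under 1e-10. Peak numbers run to 61742 in Ezh2 Y726D and 30058 in Ezh1/2 dKO, so 33.9% and 41.4% of the numbered peaks are not listed. Why they are missing is not given in the sources used here. A site without a listed peak may be 1 of these or may not have been called, and its reads are not in the lists.

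**Figure D1:**
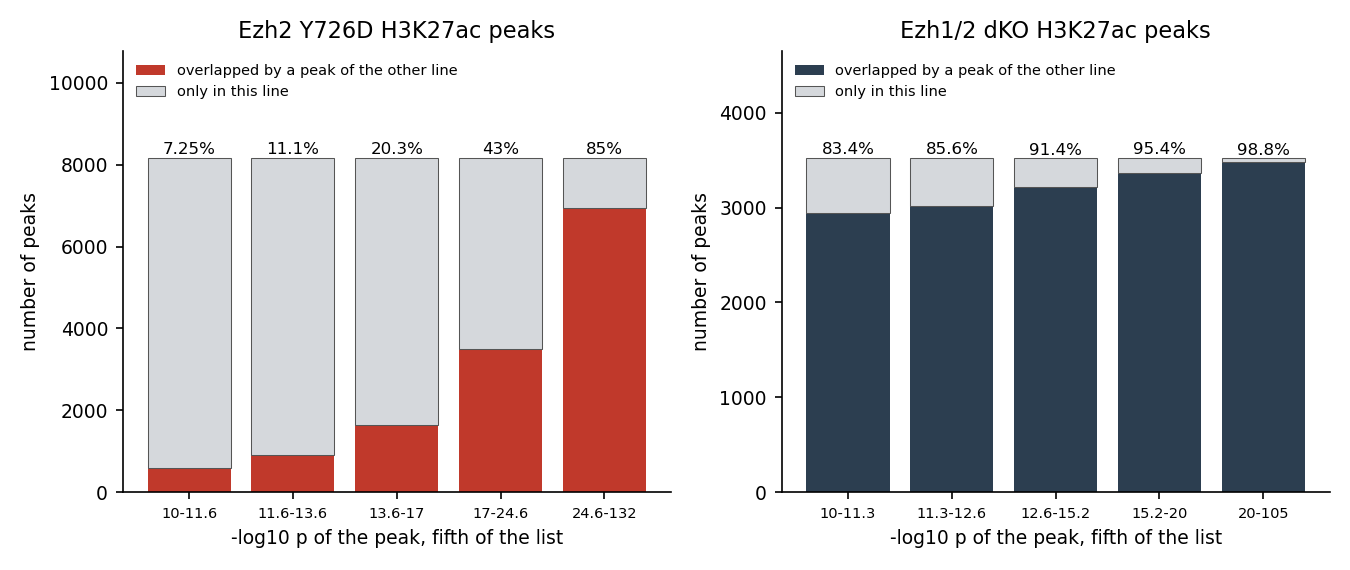
Number of H3K27ac peaks (y axis) in 5 classes of equal size by -log10 p (x axis) in Ezh2 Y726D (left) and Ezh1/2 dKO (right), with the coloured part overlapped by a peak of the other line and its percentage above the bar. The shared part grows from 7.25% to 84.98% of the class in Ezh2 Y726D and from 83.4% to 98.8% in Ezh1/2 dKO.

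Sites with 1 peak in each line showed how the same site differed. Of 11008 such pairs, 89.6% were wider in Ezh2 Y726D, with medians of 961 and 524 bp and a median ratio of 1.62. The -log10 p was higher in Ezh2 Y726D at 88.0% of pairs (medians 23.5 and 14.1). Fold enrichment at the summit was higher in Ezh2 Y726D at 84.8% (medians 8.29 and 6.06, median ratio 1.316, from 0.94 at the 10th to 1.80 at the 90th percentile). The ratio was near the same at the 6257 promoter pairs (1.324) and the 4751 distal pairs (1.30). Fold was higher in Ezh1/2 dKO at the other 15.2% of pairs. Summits lay a median of 96 bp apart, and 51.4% of pairs had them within 100 bp.

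**Figure D2:**
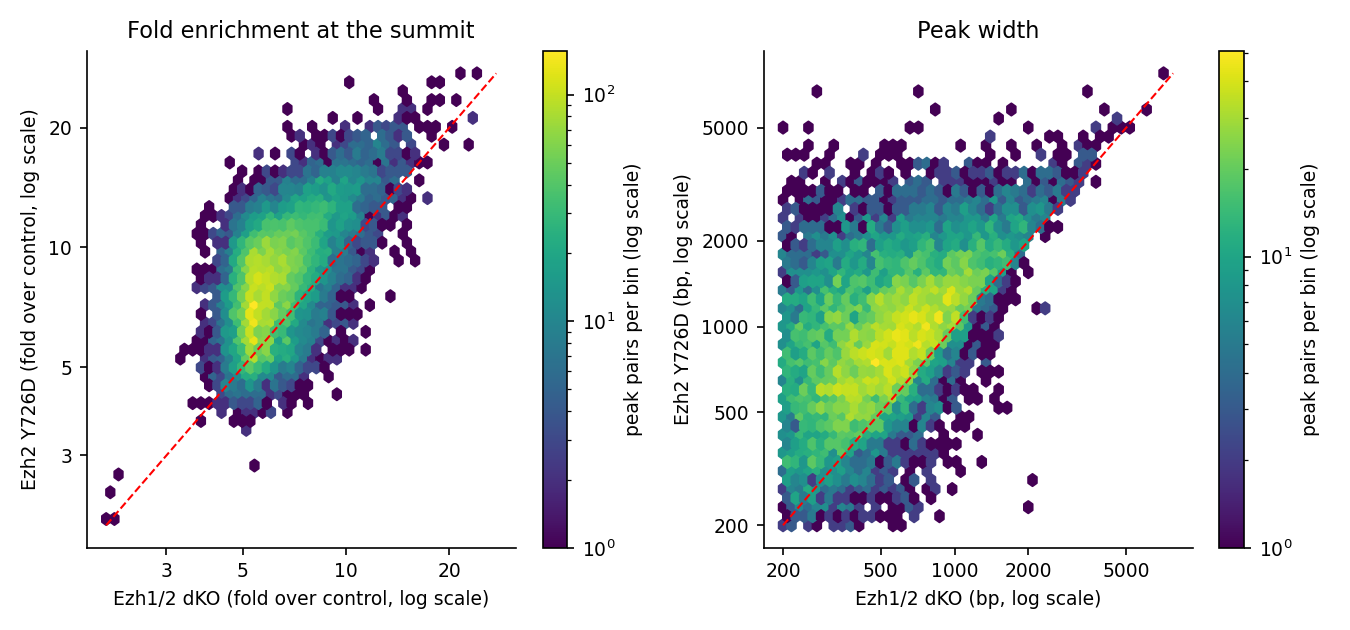
Fold enrichment over control at the summit (left) and width in bp (right) of 11008 sites with 1 H3K27ac peak in each line, Ezh1/2 dKO on the x axis and Ezh2 Y726D on the y axis, both on log scales, with colour for the number of pairs in a bin and a dashed line of equality. Most pairs lie above the line, 84.8% for fold enrichment and 89.6% for width.

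The strongest shared promoters of Ezh2 Y726D were at Hspa9, Pole4, Dido1, Rpl27a and Tbx3. At Hspa9, encoding a mitochondrial chaperone, the -log10 p was 132 in Ezh2 Y726D and 77.0 in Ezh1/2 dKO, with fold enrichments of 26.6 and 18.7. At Pole4, encoding a small DNA polymerase epsilon subunit, fold enrichment was 28.0 and 14.2, and the peaks were 6303 and 2131 bp wide. At Tbx3, a transcription factor gene of the ESC network, it was 26.5 and 17.8. The 5 strongest shared Ezh1/2 dKO promoter peaks, ranked by their -log10 p in that list, went both ways. At Rpl27a fold was 23.5 in Ezh1/2 dKO and 27.4 in Ezh2 Y726D, and at Dido1 21.8 and 27.3. The order turned at the others. At Asns, the asparagine synthetase gene, fold was 24.1 in Ezh1/2 dKO and 21.1 in Ezh2 Y726D, at Rpl3, a ribosomal protein gene, 23.0 and 20.9, and at Rbm39, a splicing factor gene, 23.1 and 17.99. The strongest shared distal site, about 70 kb from the TSS of Fam53a (69798 bp), had a fold of 27.1 in Ezh2 Y726D and 16.3 in Ezh1/2 dKO, and peaks of 7677 and 5505 bp. All of these sites also had peaks in Ezh2 R685C and Ezh2 KO.

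Line-specific peaks were weaker, narrower and more often distal. Median width was 1054 bp for shared and 491 bp for Ezh2 Y726D-only peaks of the Ezh2 Y726D list, and 544 bp for shared and 330 bp for Ezh1/2 dKO-only peaks of the Ezh1/2 dKO list. A TSS lay within 5 kb of 55.6% of shared and 45.2% (12296, CI 44.6 to 45.7) of Ezh2 Y726D-only peaks, and of 52.6% of shared and 33.9% (543, CI 31.7 to 36.3) of Ezh1/2 dKO-only peaks. With a window of 1 kb these shares were 44.1%, 26.5%, 38.9% and 22.3%. The distance of distal peaks to a TSS had medians of 21.1, 19.6, 20.6 and 27.6 kb in the same order. The promoter share of the Ezh1/2 dKO-only peaks was below that of shared peaks in each strength class, and fell from 35.6% in the weakest class to 28.6% (12 of 42 peaks) in the strongest, while that of shared Ezh1/2 dKO peaks rose from 45.5% to 60.5%. In Ezh2 Y726D both rose, from 41.05% to 59.3% for shared and from 41.5% to 50.3% for specific peaks.

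The other mutant lines shared the line-specific sites to different degrees. Of Ezh2 Y726D-only peaks, 58.4% had a peak in Ezh2 R685C, 29.8% in Ezh2 KO and 38.9% in neither. Of Ezh1/2 dKO-only peaks, 71.6% had one in Ezh2 R685C, 42.9% in Ezh2 KO and 25.8% in neither. Peaks shared by Ezh2 Y726D and Ezh1/2 dKO were in neither list in 6.82% (Ezh2 Y726D) and 6.60% (Ezh1/2 dKO) of cases. The Ezh2 R685C list is as long as that of Ezh2 Y726D (41185 peaks) and that of Ezh2 KO is shorter (25483). Open chromatin of WT cells, taken as the 50000 strongest broad ATAC-seq regions, touched 37.6% of shared and 22.7% of specific Ezh2 Y726D peaks, and 33.1% and 22.5% of those of Ezh1/2 dKO.

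CG content differed between shared and specific promoters, and its median was the same in the distal classes. Within 200 bp of the summit, promoter peaks held a median of 10 CG dinucleotides when shared and 5 when specific to Ezh2 Y726D, and 9 when shared and 7 when specific to Ezh1/2 dKO. Distal peaks held a median of 2 in every class, and windows of the same length placed every 100 kb across the genome held 1. An observed to expected CG ratio above 0.6 was found at 50.9% of shared and 28.8% of specific promoter peaks of Ezh2 Y726D, and at 48.7% and 42.2% of those of Ezh1/2 dKO, against 2.91% of the genome windows. Of 12 motifs searched on both strands, the ETS sequence CCGGAAG was in 3.11% of shared and 1.93% of specific Ezh2 Y726D windows, in 2.93% of shared and 1.56% of specific Ezh1/2 dKO windows, and in 0.579% of genome windows. The run CGCGCG was in 4.38%, 2.19%, 4.66%, 3.63% and 0.321% of the same windows. Both motifs contain CG, and their shares moved with the CG content above, whose part in them was not tested. Other motifs did not all fall from shared to specific Ezh2 Y726D windows. The AP-1 sequence TGANTCA was in 4.85% and 5.66% (genome 6.03%), and the NFY sequence CCAAT in 17.2% and 19.4% (genome 29.3%). Those of OCT, SOX, ESRRB, KLF, GATA and TEAD were higher too, each with overlapping CI. The CTCF core CCCTNNNGG fell from 16.1% to 13.6% (genome 6.93%), and the E-box fell too, with overlapping CI. These shares pool promoter and distal windows, and some turned within a place. In distal windows GATA was in 2.66% of shared and 2.13% of specific windows, and NFY in 20.7% and 20.3%. There CTCF was in 12.2% and 12.3%, and ETS in 1.21% and 1.40%. In promoter windows OCT was in 0.450% and 0.342%.

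At equal list length a larger share of Ezh2 Y726D peaks and a smaller share of Ezh1/2 dKO peaks were shared, and widths still differed. The 17618 strongest Ezh2 Y726D peaks by -log10 p, those at or above 16.5, were set against the whole Ezh1/2 dKO list. Of them 61.2% were shared, and 75.5% of the Ezh1/2 dKO peaks were. Median widths were 1021 and 517 bp, covering 22.96 and 11.5 Mb. The promoter share was 54.3% and 50.9%. Specific peaks numbered 6844 in Ezh2 Y726D (49.1% at promoters) and 4321 in Ezh1/2 dKO (42.1%), and 2721 of the latter overlapped a weaker Ezh2 Y726D peak. Among the 1000 strongest peaks of each line, 55.2% of Ezh2 Y726D and 57.8% of Ezh1/2 dKO peaks were shared within that length, yet every one of these Ezh2 Y726D peaks and 995 of these Ezh1/2 dKO peaks overlapped a peak somewhere in the whole list of the other line.

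The 10 strongest Ezh2 Y726D-only sites, 5 at promoters and 5 distal, had a -log10 p between 45.6 and 49.4. Of 13872 genes tested for mRNA, 26 were called higher in Ezh2 Y726D than in Ezh1/2 dKO (0.187%) and 207 lower (1.49%), together 1.68%, at a limma adjusted p under 0.1 and a log2 fold change of at least 1. The strongest promoter peak had a -log10 p of 48.3 and a fold of 14.01, and lay in an intron of Gm9918, 54 bp from a TSS. The nearest protein-coding TSS, that of Mfsd5, encoding a molybdate transporter, was 6857 bp away, outside the 5 kb window. At Wnt5b, a Wnt ligand gene, they were 48.0 and 14.1. Wnt5b mRNA was at 57.1 and 135 normalized counts in the 2 Ezh2 Y726D libraries and at 39.6 and 26.6 in the 2 Ezh1/2 dKO libraries, which do not overlap, but the limma adjusted p was 0.205. A peak of 1293 bp in Jmjd1c, a histone demethylase family gene, 210 bp from the TSS of Reep3, and 1 of 1561 bp 3697 bp from Polr2e, an RNA polymerase II subunit gene, were at 46.7 and 47.0. Distal peaks led with 1 in an intron of Mid1, a ubiquitin ligase gene on chromosome X (49.4). The next (47.9) lay 84655 bp from the TSS of Epc2, a NuA4 acetyltransferase subunit gene, and 31684 bp from the nearest TSS of any gene. Another (47.5) lay 11356 bp from the TSS of Zfp280b, a zinc finger gene. Zfp280b was the 1 gene called among those nearest to or holding the 10 sites: 547 and 678 normalized counts against 226 and 238 in Ezh1/2 dKO, a log2 difference of 1.39 (SE 0.18, by limma, with an adjusted p = 0.0104). In WT it was at 395 and 397. Of the 10 sites, all had an Ezh2 R685C peak and 7 an Ezh2 KO peak.

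Of the 9 genes nearest to or holding the 10 strongest Ezh1/2 dKO-only sites, 4 had mRNA called lower in Ezh2 Y726D (Amph, Gpr126, Tspan8 and Cyp39a1). Of all 13872 tested genes, 207 (1.49%) were called lower. The strongest site was in Amph, encoding the endocytic protein amphiphysin, on chromosome 13, with a -log10 p of 70.9, a fold of 18.5 and a width of 2709 bp. Another, with a -log10 p of 32.1, lay beside it. Amph mRNA was at 392.4 and 359.6 normalized counts in Ezh1/2 dKO and 153 and 133 in Ezh2 Y726D, lower by -1.39 on the log2 scale (SE 0.19, limma adjusted p = 0.0157). WT held 189 and 166. Near Gpr126, an adhesion receptor gene, a peak 37317 bp from the TSS had a -log10 p of 36.8, and mRNA was at 213 and 207 in Ezh1/2 dKO and 15.2 and 34.7 in Ezh2 Y726D (log2 fold change -3.13, SE 0.38, limma adjusted p = 0.00963). In an intron of Tspan8, a tetraspanin gene, the peak had a -log10 p of 28.7, and mRNA was at 70.1 and 85.2 against 3.57 and 3.36 (log2 fold change -4.13, SE 0.41, limma adjusted p = 0.00359). At Cyp39a1, an oxysterol hydroxylase gene, the peak had a -log10 p of 25.7, and mRNA fell by 1.68 on the log2 scale (SE 0.37, limma adjusted p = 0.0883), from 396 and 261 to 153 and 64.9. At the promoter of Bcl6, a transcriptional repressor gene, with a -log10 p of 40.5, mRNA was at 88.2 and 93.2 against 34.8 and 34.7, and did not pass the test (limma adjusted p = 0.105). Rnf10, Ranbp17 and Zfp462, at or near other peaks, were not called. Ghitm, whose TSS lay 607421 bp from the last peak, was not called either. No Ezh2 Y726D peak lay within 20 kb of the Amph, Gpr126, Tspan8, Ghitm, Rnf10 or Cyp39a1 sites. All 10 sites had peaks in both Ezh2 R685C and Ezh2 KO. The study states that experiments were repeated, and which cultures gave the 2 RNA libraries of a line is not given in the sources used here, so that p-values measure the spread between these libraries.

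Promoters were grouped by whether a peak lay at the start of each of 22225 protein-coding genes. Both lines had a peak at 6189 (27.8%), Ezh2 Y726D alone at 4306 (19.4%), Ezh1/2 dKO alone at 205 (0.922%) and neither at 11525. At equal list length Ezh2 Y726D alone had a peak at 1571 (7.07%) and Ezh1/2 dKO alone at 1012 (4.55%). Against the backgrounds of 0.187% higher and 1.49% lower, genes with an Ezh2 Y726D-only promoter peak had 7 of 3629 called higher (0.193%) and 15 lower (0.413%) and a median log2 fold change of 0.00. With quantile normalization this class had 21 higher and 16 lower, and with promoters classed at equal list length 6 higher and 2 lower of 1363, so the balance of the calls depended on both choices. Genes with an Ezh1/2 dKO-only promoter peak had 9 of 159 lower by limma (5.66%), and 0 higher by limma, edgeR and DESeq2. The class median was -0.18. At an unadjusted limma p under 0.05, 2 were higher and 32 lower. Over all tested genes 631 were higher and 1186 lower at that p, together 13.1%. Without chromosome 12, 7 of 141 genes of the class were called lower (4.96%), and with promoters classed at equal list length 23 of 876 (2.63%). Genes with a peak in neither line had 111 of 3561 lower (3.12%), and those with both 15 higher and 50 lower of 5746. These calls rest on few libraries: leaving out 1 Ezh1/2 dKO library left 20 or 14 calls of 233, leaving out Ezh2 Y726D library 1 gave 514 and library 2 gave 135, and leaving out Ezh2 KO library 2 gave 152. With quantile normalization the split was 50 higher and 168 lower.

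Single genes with Ezh2 Y726D-only promoter peaks differed from Ezh1/2 dKO in both directions. Ddx58, encoding the RNA sensor RIG-I, was at 646 and 663 normalized counts in Ezh2 Y726D and 243 and 171 in Ezh1/2 dKO, a log2 difference of 1.68 (SE 0.26, by limma, with an adjusted p = 0.0218), with a peak of -log10 p 29.1. Cdc42ep4, encoding a CDC42 effector, was at 456 and 689 against 228 and 232. Ankrd33b was at 350 and 334 against 101 and 123, and Exoc3l, related to an exocyst subunit, at 205 and 282 against 65.1 and 58.6. These 4 and 1700123I01Rik were the 5 with the largest rise. Among the 15 that were lower in Ezh2 Y726D, the 5 with the largest difference had peaks close to the threshold, with -log10 p between 10.1 and 11.3. Hmcn1, an extracellular matrix gene, was at 15.2 and 11.2 in Ezh2 Y726D and 209 and 159 in Ezh1/2 dKO, and Col26a1, a collagen gene, at 22.3 and 5.59 against 159 and 130. WT held 14.7 and 10.6 for Hmcn1, and 167 and 134 for Col26a1. Fam159b, Mst1 and Aldh1l2 were lower in Ezh2 Y726D by 3.75, 3.10 and 2.83 on the log2 scale. Their WT levels were 6.67 and 9.63, 46.7 and 67.4, and 329 and 410.

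Of the 9 genes with Ezh1/2 dKO-only promoter peaks that fell, the 5 with the largest change were Fgf21, Fut1, Fbln5, Aspa and Colec12. Aspa, encoding aspartoacylase, was at 317 and 418 normalized counts in Ezh1/2 dKO and 31.2 and 48.1 in Ezh2 Y726D (log2 fold change -3.20, SE 0.44, limma adjusted p = 0.0163), with a peak of -log10 p 22.1. Fgf21, a metabolic hormone gene, and Fut1, a fucosyltransferase gene, neighbour each other and share 1 peak of -log10 p 14.1. Fgf21 had 50 reads in Ezh1/2 dKO and 0 in Ezh2 Y726D, at least 14.4-fold lower with a floor of 3 reads over both libraries. Fut1 had 83 and 3 reads, a ratio of 23.8 (exact 95% interval 7.88 to 118, counting error only). Fbln5, an elastic fibre gene on chromosome 12, was at 150 and 293 against 22.3 and 12.3, and Colec12, a scavenger receptor gene, at 358 and 329 against 97.2 and 102.

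Acetylation at Polycomb sites was more frequent in Ezh2 Y726D than in any other line with a list. Of 5404 WT SUZ12 peaks, 1532 (28.3%, CI 27.2 to 29.6) overlapped an H3K27ac peak in Ezh2 Y726D and 499 (9.23%, CI 8.49 to 10.04) in Ezh1/2 dKO. The shares were 7.01% in Ezh2 R685C, whose list is as long, and 3.96% in Ezh2 KO. At equal list length 12.99% (CI 12.1 to 13.9) overlapped in Ezh2 Y726D, 2.76% in Ezh2 R685C and 2.72% in Ezh2 KO, with Ezh1/2 dKO at 9.23%. The sites were nested, as 464 sites had a peak in both lines, 93.0% of those of Ezh1/2 dKO and 30.3% of those of Ezh2 Y726D, and 35 sites had one in Ezh1/2 dKO alone. From the weakest to the strongest SUZ12 class, the share was 25.8% to 30.5% in Ezh2 Y726D and 8.51% to 9.63% in Ezh1/2 dKO, while it was 10.1% and 3.8% in Ezh2 R685C. SUZ12 sites with WT H3K27me3 had acetylation in 25.1% (Ezh2 Y726D) and 7.65% (Ezh1/2 dKO), and those without it in 40.8% and 15.3%. Sites that kept a SUZ12 peak in the library labelled Ezh2Y726D, taken as the same line, had 29.9% in Ezh2 Y726D, against 27.1% of sites that did not. In Ezh1/2 dKO the same sites had 9.58% and 8.94%, a difference in the same direction.

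**Figure D3:**
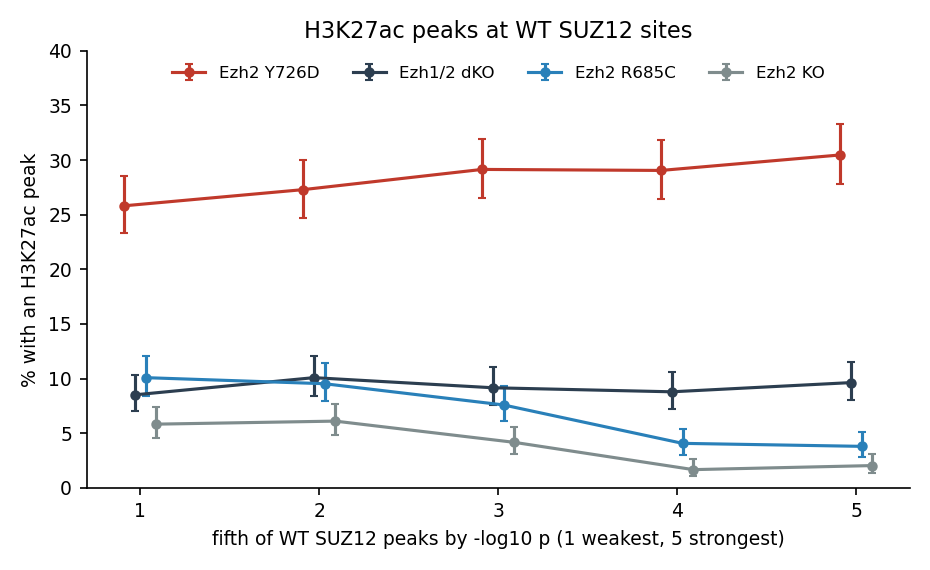
Percentage of WT SUZ12 peaks that overlap an H3K27ac peak (y axis) in 5 classes of SUZ12 peaks by -log10 p (x axis) in Ezh2 Y726D, Ezh1/2 dKO, Ezh2 R685C and Ezh2 KO, with Wilson 95% intervals for counting error. Ezh2 Y726D lies between 25.8% and 30.5% in every class, above the other lines, and Ezh1/2 dKO between 8.51% and 10.1%.

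Peaks on SUZ12 sites were close to the others in median strength and lower at the top of the range. In Ezh2 Y726D, 1681 peaks lay on WT SUZ12 sites, with a median -log10 p of 15.02 against 15.2 for the others and a maximum of 85.2 against 132. Of them 28.4% were shared, against 33.5% of the others. In Ezh1/2 dKO, 526 peaks lay on such sites, 91.6% of them shared, with a median of 12.6 against 13.8. By gene, 47.1% of 3212 promoters bound by SUZ12 in WT had a peak in Ezh2 Y726D and 20.5% in Ezh1/2 dKO, and 47.2% and 30.2% of unbound promoters did. At equal list length the Ezh2 Y726D shares were 26.2% of bound and 32.1% of unbound promoters. WT SUZ12 bound 20.5% of the promoters with an Ezh2 Y726D-only peak, 15.6% of those with an Ezh1/2 dKO-only peak, 10.1% of those with both and 14.5% of those with neither. The 640 tested genes bound by SUZ12 with an Ezh2 Y726D-only peak had 2 called higher (0.313%) and 4 lower (0.625%).

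Hox clusters, whose genes pattern the body axis and are PRC2 targets in ESCs, held dense acetylation in Ezh2 Y726D. At Hoxa, 125.5 kb on chromosome 6 with 10 kb added on each side, 30 peaks covered 30.6% of the bases in Ezh2 Y726D and 10 peaks covered 4.83% in Ezh1/2 dKO, against 0.453% in Ezh2 R685C and 0.215% in Ezh2 KO, each with 1 peak. Coverage in Ezh2 Y726D and Ezh1/2 dKO was 26.4% and 6.47% at Hoxc, 19.1% and 2.52% at Hoxd and 4.77% and 2.09% at Hoxb. Ezh2 R685C covered 7.88% of Hoxc, more than Ezh1/2 dKO, and Ezh2 KO 3.92%. At Hoxb they covered 1.49% and 1.25%, and at Hoxd they had 0 peaks. WT SUZ12 peaks covered 47.9% of Hoxa, those of Ezh2 Y726D 7.29% and those of Ezh1/2 dKO 0.461%. Hoxa10 mRNA was at 424 and 493 normalized counts in Ezh2 Y726D, 226 and 223 in Ezh1/2 dKO, and 2.67 and 0 in WT. Hoxa9 was at 145 and 210 against 61.0 and 50.6, and Hoxa7 at 106 and 232 against 65.1 and 85.2. The libraries of both lines did not overlap for Hoxa7, Hoxa9, Hoxa10 and Hoxa11, all higher in Ezh2 Y726D, but 0 of 5 tested Hoxa genes were called by limma or edgeR and 2, Hoxa9 and Hoxa10, by DESeq2 (1 at an unadjusted p under 0.05, Hoxa9; limma adjusted p from 0.362 to 0.912). Among all tested genes, libraries did not overlap, with Ezh2 Y726D higher, for 22.1%, and 13.1% had an unadjusted limma p under 0.05. The other clusters did not separate in this direction. The summed mRNA of the 3 tested Hoxb genes was 59.7 and 66.0 normalized counts in Ezh2 Y726D and 117 and 162 in Ezh1/2 dKO, which do not overlap. For the 5 tested Hoxd genes it was 98.1 and 49.2 against 113 and 81.7, and for the 6 tested Hoxc genes 160 and 162 against 142 and 202, with overlapping libraries.

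**Figure D4:**
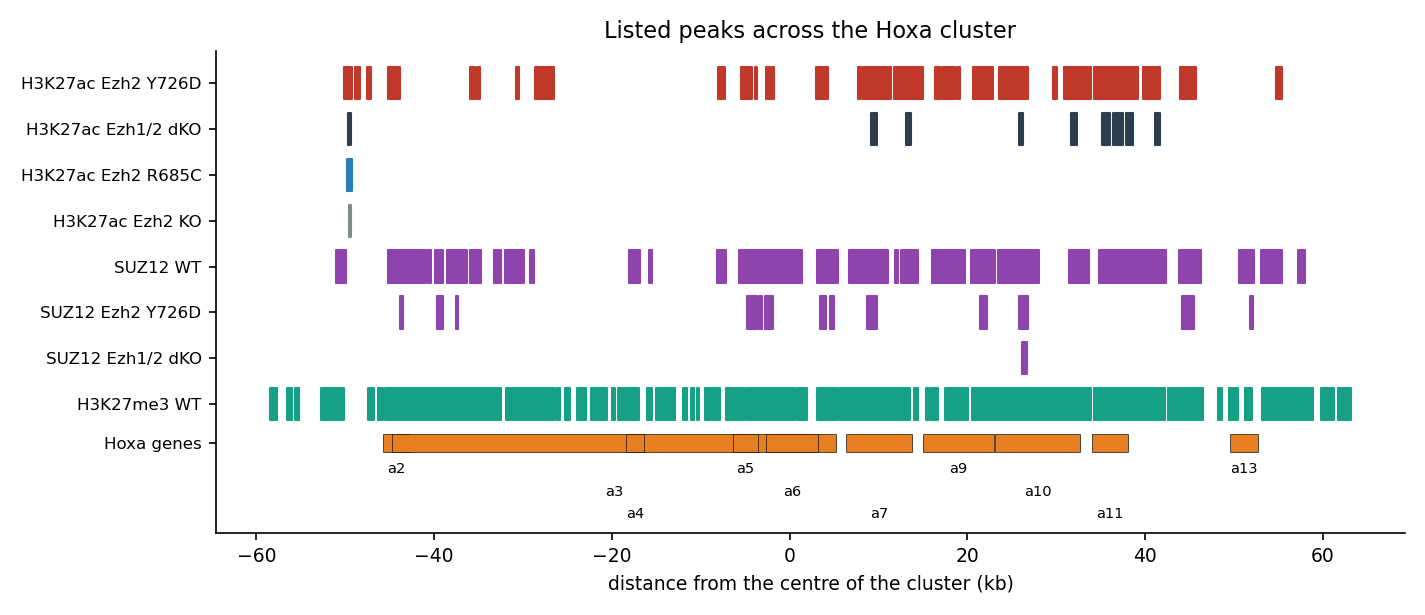
Deposited peaks (blocks) across the Hoxa cluster by distance from the centre of the cluster in kb (x axis) for H3K27ac in 4 lines, SUZ12 in 3 lines and H3K27me3 in WT, with spans of 10 of the genes at the bottom. Ezh2 Y726D has 30 H3K27ac peaks spread over much of the cluster and Ezh1/2 dKO 10, most of them between Hoxa7 and Hoxa11.

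Pluripotency genes were acetylated in both lines, with more bases in Ezh2 Y726D. Of 20 such genes with a position, 19 had a promoter peak in both, and within 10 kb of each of these 19 Ezh2 Y726D peaks covered more bases. The medians over the 20 genes were 11225 and 5966 bp. At Pou5f1, encoding OCT4, the highest -log10 p was 110.0 in Ezh2 Y726D and 69.3 in Ezh1/2 dKO, at Nanog 82.0 and 52.5, and at Sox2 80.8 and 54.6. Klf5 went the other way in strength, with 25.1 and 30.9. Dppa3, a germline and ESC gene, had no peak in any of the 4 lists, and its mRNA fell from 283 and 414 normalized counts in Ezh1/2 dKO to 21.4 and 20.1 in Ezh2 Y726D (log2 fold change -3.98, SE 0.33, limma adjusted p = 0.00150). It was the 1 of 21 pluripotency genes tested that was called, where limma called 1.68% of all tested genes. Of 10 housekeeping genes, 8 had a peak in both lines and 2, Hprt and Pgk1 on chromosome X, in neither. These 2 differed otherwise. Hprt had no peak in any of the 4 lists and was not found among the genes tested for mRNA. Pgk1 had an Ezh2 R685C peak of -log10 p 26.4. Its mRNA was at 1485 and 1676 normalized counts in Ezh2 Y726D and 1738 and 1692 in Ezh1/2 dKO.

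Lineage genes differed in how many promoters carried a peak. Of 15 Polycomb loci that the study examined, 6 had a promoter peak in both lines (among them Hoxa7, Hoxa10, Hoxa11 and Hoxd9), 3 in Ezh2 Y726D alone (Cdx2, Six2 and Mmp25) and 6 in neither, and 0 had one in Ezh2 R685C or Ezh2 KO. The study chose these loci, so they are not independent evidence of a direction. Of 7 trophectoderm genes, 5 had a peak in Ezh2 Y726D alone, with -log10 p of 15.02 at Cdx2, 16.4 at Gata3 and 15.5 at Krt8. Of 9 mesoderm genes, 4 did: T, Mixl1, Evx1 and Fgf8. Of 9 primitive endoderm genes, 3 did (Gata6, Gata4 and Pdgfra) and 2 had a peak in both (Col4a1 and Lama1), and of 8 neural genes 2 did (Pax6 and Olig2) and 1, Nes, had a peak in both. Of 7 fibroblast genes, 1, Thy1, did. In these 5 lists no gene had a promoter peak in Ezh1/2 dKO alone, and 0 of the tested genes (6 trophectoderm, 3 mesoderm, 6 primitive endoderm, 3 neural and 1 fibroblast) were called by limma, edgeR or DESeq2, with 1 each at an unadjusted p under 0.05 in trophectoderm (Eomes), primitive endoderm (Dab2) and neural (Nes). Across all genes, 19.4% of promoters had a peak in Ezh2 Y726D alone. Of all tested genes, limma called 1.68%, and 13.1% had an unadjusted limma p under 0.05. In lists this short, 0 calls is near that share.

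Regulators of the mark and signalling targets were mostly acetylated in both lines. Of 11 genes of PRC2 subunits, 8 had a promoter peak in both lines, 2 in Ezh2 Y726D alone (Rbbp7 and Phf1) and 1, Phf19, in neither. Ezh2 mRNA was at 422 and 613 normalized counts in Ezh2 Y726D and at 0.824 and 1.78 in Ezh1/2 dKO, and its promoter carried a peak in both lines, with -log10 p of 35.6 and 15.98. Of 12 acetyltransferase, deacetylase and demethylase genes, 8 had a peak in both, 2 (Kdm6b and Chd4) in Ezh2 Y726D alone and 2 (Crebbp and Hdac3) in neither, and 0 of 12 were called by limma, edgeR or DESeq2, nor passed an unadjusted p of 0.05. Of 15 targets of 2i and related signalling, 10 had a peak in both and 2 (Socs3 and Id1) in Ezh2 Y726D alone. Bmp4, a growth factor gene, had 9716 bp of peaks in Ezh2 Y726D and 1397 bp in Ezh1/2 dKO, and its mRNA rose from 343 and 334 to 736 and 688 normalized counts (log2 fold change 1.07, SE 0.15, limma adjusted p = 0.0163). Of 7 germline genes, 2 (Dazl and Mael) had a peak in both lines and 2 (Sycp3 and Stra8) in Ezh2 Y726D alone. By limma 0 of 7 were called, with 3 at an unadjusted p under 0.05 (Dazl, Tex101 and Brdt). edgeR and DESeq2 called 2, Tex101 and Brdt. Of all tested genes, limma called 1.68%, and 13.1% had an unadjusted limma p under 0.05.

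Chromosome 12 had fewer Ezh2 Y726D peaks than any other chromosome relative to Ezh1/2 dKO. It held 977 and 671 peaks, a ratio of 1.46, where the whole lists gave 2.32 and the other chromosomes between 1.93 and 3.67. Of the Ezh1/2 dKO peaks there, 78.8% were shared, against 87.2% to 94.6% on the others. Chromosome 12 held 142 Ezh1/2 dKO-only peaks (8.88% of them all), fewer than chromosome 4 with 174 (10.9%). Ezh2 Y726D peaks per Ezh2 R685C peak were 0.702 on chromosome X, between 0.854 and 1.13 on the autosomes other than 12, and 0.668 on chromosome 12. mRNA moved with it. The median log2 fold change of its 445 tested genes was -0.37, where the other chromosomes lay between -0.12 and 0.04, with 0 genes called higher by limma, edgeR and DESeq2 (also 0 at an unadjusted p under 0.05) and 17 lower (3.82%). The median level of its genes was 136 and 130 normalized counts in the Ezh2 Y726D libraries and between 169 and 183 in the other 6 libraries. Whether the peak and mRNA values have a common source was not tested. Without chromosome 12, the shared percentage of Ezh1/2 dKO peaks was 91.4%.

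**Figure D5:**
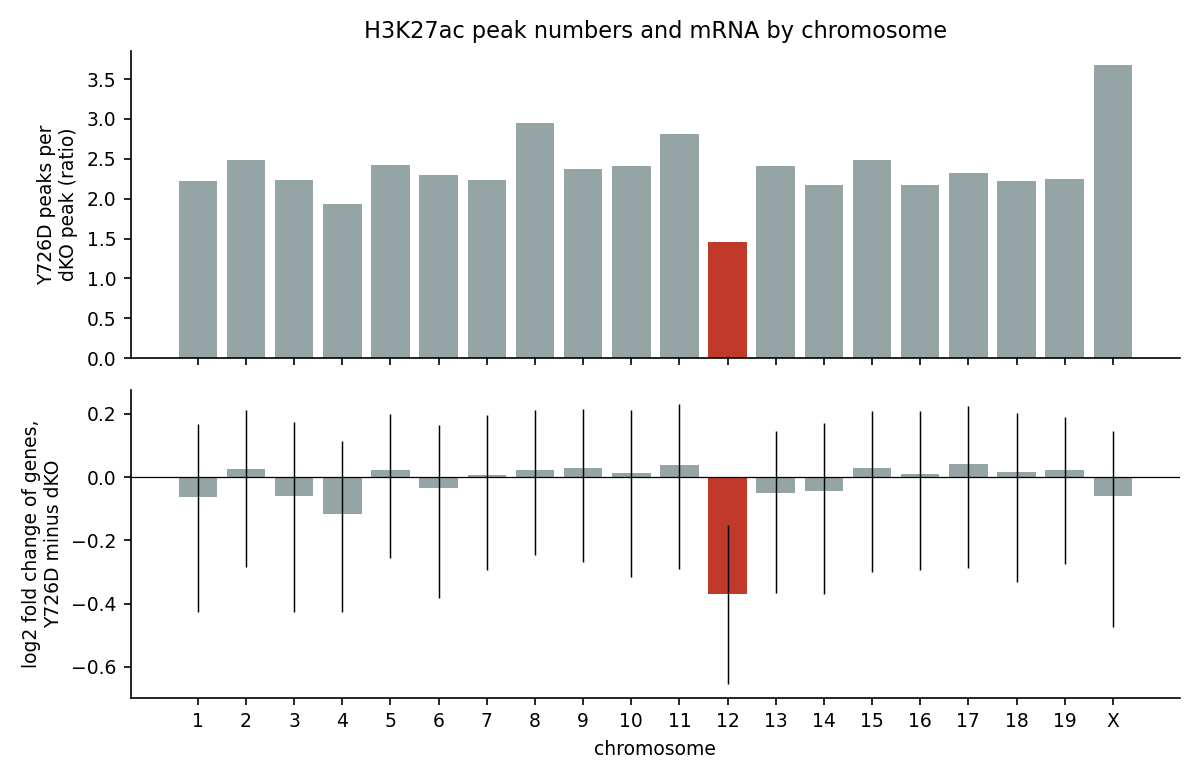
Number of Ezh2 Y726D H3K27ac peaks per Ezh1/2 dKO peak (upper bars) and median log2 fold change of mRNA, Ezh2 Y726D minus Ezh1/2 dKO, with lines for the middle quartiles of genes (lower bars) by chromosome. Chromosome 12 has the lowest ratio, 1.46, and the lowest median, -0.37.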

How the data were processed

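ChIP-seq and ATAC-seq reads were aligned to mm9 with Bowtie, duplicates removed with Picard and peaks called with MACS2 by the authors. The deposited peak lists give, per peak and library, the -log10 p-value and the fold enrichment, a ratio over local background. Each list comes from 1 library. The deposited RNA table holds a signal per gene and library, the read count divided by a size factor by the authors; 100% of values were whole reads within 0.01 after recovery, and libraries held 3604123 to 5181553 reads. The authors' own comparison columns (fold changes and p-values against WT) were not used.

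Overlaps, widths, TSS distances (GENCODE annotation of mm9, 86842 positions) and shares with Wilson intervals were computed with Python 3.11.15, pandas 2.3.3 and scipy 1.17.1. Promoters had a TSS within 5 kb. At equal length, the strongest peaks by -log10 p were kept. mRNA was compared with limma 3.58.1 in R 4.3.3 (log2 of the normalized count plus 1, mean of at least 5, all 8 libraries, Benjamini-Hochberg), and the whole reads recovered from the table were also tested with edgeR 4.0.16 and DESeq2 1.42.0. Of tested genes, 13095 (94.4%) matched a protein-coding gene. Scripts were tested on simulated data. Sites named are the 5 strongest per class and place and the widest, and genes named are the 5 largest changes among called genes per promoter class and direction, plus genes of the lists. Hoxa, Dppa3, Ezh2, Bmp4, Klf5 and chromosome 12 were singled out after their values were seen. Members and lists were chosen with earlier results of these data known. Replicate numbers did not pair the RNA libraries. WT H3K27ac was not analysed here, and 1 gene is not reported here.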

Additional observations from a re-analysis of the deposited data

How the results depend on the processing

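Shared percentages of Ezh2 Y726D and Ezh1/2 dKO peaks, promoter percentages of Ezh2 Y726D-only and Ezh1/2 dKO-only peaks, and percentages of WT SUZ12 sites acetylated in Ezh2 Y726D and Ezh1/2 dKO were, in this order, 24.7%, 93.6%, 53.5%, 42.9%, 8.44% and 1.42% at a p of at most 1e-20. With an overlap of at least 50% of the peak, the shares that moved by more than their counting interval were 21.5% and 89.4% shared, 46.2% of Ezh2 Y726D-only peaks at promoters, and 17.8% and 4.72% of SUZ12 sites. At equal length they were 61.2% and 75.5%, 49.1% and 42.1%, and 12.99% for Ezh2 Y726D. Ranked by fold enrichment, an alternative chosen after seeing the data, they were 59.7%, 73.5%, 49.0%, 42.7% and 14.2%. With peaks closer than 1 kb merged, 40.7% of Ezh2 Y726D peaks were shared and 46.0% and 36.5% of specific peaks were at promoters. With summits within 500 bp, 31.5% and 73.3% were shared. Promoter percentages were 26.5% and 22.3% with a window of 1 kb and 40.3% and 29.3% with protein-coding TSSs. Without chromosome 12, 91.4% of Ezh1/2 dKO peaks were shared. The order of the lines held in each of these settings. The causes were not tested beyond what each setting changes by construction.

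The 233 called genes became 1077 at an unadjusted p under 0.1, 150 with the 4 libraries compared alone, and 14 to 514 without 1 library. edgeR called 253 (222 the same) and DESeq2 327 (217 the same). With quantile normalization 77.1% of calls were lower, against 88.8%. The replicate block gave 162 calls, and same-numbered libraries correlated between -0.41 and 0.29 in their deviations, so the numbers were not taken as pairs. The 15 genes named by promoter class were chosen for libraries of both lines that do not overlap. Their direction could therefore not turn when 1 library was left out. That it held in all 269 alternative values is thus no separate check. Of these values 35 missed the threshold. No WT H3K27ac list was compared, depth was inferred, and sites without a listed peak are not seen.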
